A study of Mus musculus with 4 samples.

Results

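The relay thalamus spots are the 800 spots of 4 mouse brain sections that carried the most RNA of Prkcd, Tnnt1, Synpo2 and Plekhg1, genes that mark sensory and motor relay nuclei of the dorsal thalamus. Spots were scored by the UMIs (unique molecular identifiers, each standing for 1 captured RNA molecule) of these 4 genes per 10000 UMIs of the spot. Only spots with at least 500 UMIs and without a UMI of Six3, a homeobox gene of the reticular thalamic nucleus, could enter, and the 800 highest scores over all sections were taken. They made up 7.31% of the 10942 spots with at least 500 UMIs and came from 11064 deposited spots. The score ran from 16.96 at rank 800 to 53.5 at rank 1. Just inside the limit the scores were 17.04, 17.03, 17.02, 16.97 and 16.96, and just outside it they were 16.95, 16.88, 16.86, 16.86 and 16.85. The set thus ends within a gradient and not at a gap.

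The study compared brains of young and old mice after repeated ethanol. All animals were C57BL/6 females; the young were 3 to 4 months old and the aged 18 to 20 months. Over 18 days they were gavaged 10 times with water (vehicle) or with ethanol at 3 g/kg, and brains were taken 18 hours after the last dose. Left hemispheres freed of meninges were frozen in embedding compound, and coronal sections of 10 µm, cut between −2.0 and −2.2 mm from bregma and labelled hippocampal, went to Visium, in which RNA of a section is captured on an array of barcoded spots that each cover several cells. Each pairing of age and gavage had 1 library, and the labels did not say whether tissue of several animals was joined. No difference between libraries therefore has a replicate, no p-value was computed, and a model with age and gavage as its 2 terms, which would leave 1 residual degree of freedom, was not fitted.

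Relay nuclei pass sensory and motor signals to the cerebral cortex. Their projection neurons use glutamate, load it into vesicles with the transporter encoded by Slc17a6, and in rodents most of these nuclei hold few inhibitory neurons of their own, so that inhibition arrives from the reticular nucleus that wraps the thalamus. Relay neurons switch between single spikes and bursts, which rest on T-type calcium channels and hyperpolarization-activated HCN channels, and Tcf7l2, Gbx2 and Lef1 are transcription factors of their lineage. First-order nuclei receive their driving input from the senses, whereas higher-order, midline and intralaminar nuclei are often marked by Calb1, Calb2 or Necab1, which encode calcium-binding proteins.

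Relay spots took up a larger part of the sections labelled ethanol than of those labelled vehicle. In young mice they were 132 of 2716 spots after vehicle (4.86%, exact 95% Clopper-Pearson interval 4.08% to 5.74%) and 274 of 2881 after ethanol (9.51%, 8.46% to 10.6%). In aged mice they were 134 of 2703 after vehicle (4.96%, 4.17% to 5.84%) and 260 of 2642 after ethanol (9.84%, 8.73% to 11.0%). The intervals of the ethanol sections do not overlap those of the vehicle sections, but they cover counting error only. With 1 section for each group, the plane of section and the gavage label cannot be told apart. Some genes of other structures moved with the same split. Summed over the remaining spots, the lateral hypothalamic peptide gene Hcrt stood at 0.645 CPM (a gene's UMIs in a set of spots, scaled to a total of 1000000) in young vehicle and 1.54 in aged vehicle. In young and aged ethanol it stood at 290.1 and 298.6 CPM. Pmch, another such peptide gene, was split less cleanly, at 4.59 CPM in young vehicle and 152.3 in aged vehicle, against 511.9 and 249.9 in young and aged ethanol. Ttr, made by the choroid plexus, stood at 4785 and 5837 CPM in the remaining spots of the vehicle sections and at 1351 and 1808 CPM in those of the ethanol sections. Among relay spots, 368 array positions were used in 1 library, 183 in 2 and 22 in 3. A shared barcode is a shared position on the array and not a shared cell.

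**Figure D1:**
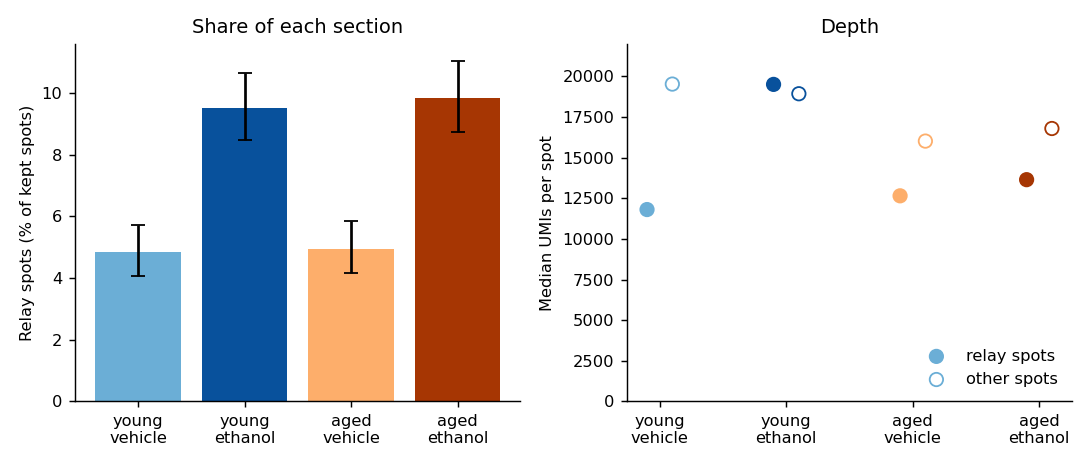
Left, relay spots as a percentage of the spots with at least 500 UMIs in each section, with exact 95% intervals for counting error; right, median UMIs per spot for relay spots (filled) and other spots (open). The vehicle sections lie at 4.86% and 4.96% and the ethanol sections at 9.51% and 9.84%, and relay spots were shallower than other spots except in young ethanol.

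Relay spots were not equally deep. In the young libraries their median was 11809 UMIs for vehicle and 19513 for ethanol, against 19532.5 and 18937 in the other spots. In the aged libraries it was 12654.5 for vehicle and 13648.5 for ethanol, against 16023 and 16797.5. Lists of 4 values here follow this order, young before aged and vehicle before ethanol. Summed over relay spots this gave 1625479, 5554636, 1754743 and 3574844 UMIs, so 3 UMIs, the floor used where a gene had none, stood for 1.85, 0.540, 1.71 and 0.839 CPM. Mitochondrially encoded transcripts were 15.2%, 14.02%, 15.0% and 16.5% of relay UMIs. Lars2, Gm42418 and AY036118 together, a group that often reflects carried-over ribosomal RNA, made up 0.306%, 0.205%, 0.113% and 0.797%, so aged ethanol stood highest in both measures.

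The levels of the 4 genes of the rule are a description, since they chose the spots. Prkcd encodes protein kinase C delta and lies on chromosome 14 (30595353 to 30626414, GRCm38.p6). It stood in relay spots at 1624, 1948, 1875 and 1999 CPM. Tnnt1, a slow skeletal troponin gene that is also transcribed in thalamus, stood at 596.7, 364.2, 545.9 and 421.6 CPM. Synpo2, an actin-binding protein gene, had 239.9, 243.4, 208.0 and 264.9 CPM, and Plekhg1, which encodes a guanine nucleotide exchange factor, had 244.9, 240.7, 218.8 and 210.9. Prkcd was thus the largest contributor to the score in each library. The relay spots held between 61.9% and 71.9% of the Tnnt1 UMIs of a section and between 64.2% and 73.7% of its Prkcd UMIs.

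Genes outside the rule set the relay spots apart from all other spots in the same sections. A gene was called higher or lower where all 4 libraries showed a CPM difference of 2-fold or more with 1 sign and each gave the gene 20 or more UMIs over the sets compared. Because the spots were chosen by their expression, these differences describe the set and were not tested. Of 15048 genes measured, 451 were higher in relay spots (3.00%) and 937 were lower (6.23%), with a median log2 ratio of −0.11 over all of them. A further 3717 passed 2-fold in some libraries but not in all. The highest were Smpx (median log2 ratio over the libraries 5.51, range 4.93 to 6.01), which encodes a small muscle protein, Abhd12b (5.29), Adamts19 (4.66), Atp2a1 (4.61), the gene of a muscle calcium pump, Zfp385c (4.597) and the unnamed transcript Gm13544 (4.76). Smpx stood at 19.7, 20.5, 13.1 and 21.3 CPM in relay spots and at 0.352, 0.550, 0.203 and 0.696 CPM elsewhere, and the ranges of the libraries did not overlap. The relay spots held 64.0%, 79.7%, 71.9% and 71.0% of all Smpx UMIs of their sections, although Smpx took no part in choosing them.

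The label of a relay thalamus was borne out by transcription factors that the rule did not use. Of 12 relay identity factors measured, 9 were higher, 1 was lower and 2 were neither, with a median log2 ratio of 2.11. Tcf7l2, the Wnt effector of thalamic neurons, had 440.5, 390.3, 519.7 and 422.1 CPM in relay spots and 33.6, 50.2, 45.5 and 53.6 CPM elsewhere (median log2 ratio 3.25). Lef1, its relative, had 78.7, 83.7, 126.5 and 103.2 CPM against 3.65, 8.30, 5.15 and 9.49 (3.94). Both were several-fold higher in every library. Rora, a nuclear receptor used by thalamic and cortical input neurons, had 498.3, 463.8, 508.9 and 539.0 CPM against 42.9, 59.7, 42.6 and 65.1 (3.29). Zic1 stood at 340.2, 284.4, 342.5 and 381.8 CPM, and Gbx2, a homeobox gene needed for thalamic wiring, at 38.1, 43.6, 46.2 and 42.8. Nr4a2, which is kept in the list but is used by deep cortical and claustral neurons, was the lower member (−4.22), at 1.71 to 3.36 CPM against 39.2 to 40.1. Mef2c and Prox1 met neither limit.

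Genes that mark single thalamic nuclei were not higher in the set as a whole. Of 12 thalamic nucleus genes measured, 0 were higher and 5 were lower, with a median of −1.61: the peptide genes Penk (−4.53), Tac1 (−4.28) and Nts (−4.79, where 0 UMIs in 2 libraries make the ratio a bound), the nitric oxide synthase Nos1 (−2.34), and Cbln4, a synapse organizer. Calb1 stood at 121.8, 130.9, 100.3 and 99.3 CPM in relay spots against 129.9, 133.6, 138.7 and 128.4 in the other spots, and Calb2 at 57.8, 34.2, 56.4 and 33.3 against 70.4, 96.7, 75.7 and 80.3. These genes were therefore present in relay spots without marking them.

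Ion channels of bursting and fast spiking were higher, and 3 channel genes were lower. Of 17 channel genes 8 were higher, 3 lower and 6 neither (median 1.17). Hcn4, the slow pacemaker subunit of thalamus, was the highest at 60.9, 67.5, 48.4 and 66.6 CPM against 3.63, 6.07, 4.66 and 6.89 (3.43), and Hcn2 was higher too (1.45). Cacna1g, the T-type calcium channel that carries thalamic bursts, had 142.7, 169.9, 111.1 and 164.8 CPM against 34.5, 37.6, 33.3 and 35.95, while its relatives Cacna1i (−3.40) and Cacna1h (−3.33) were lower. Members of the T-type family thus went in opposite directions. The potassium channel genes of fast spiking Kcnc2 (351.9, 375.4, 396.1 and 348.5 CPM) and Kcnc1 (279.9, 328.9, 315.1 and 363.1) were above their levels of 61.3 to 78.4 and 97.6 to 112.7 CPM elsewhere.

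**Figure D2:**
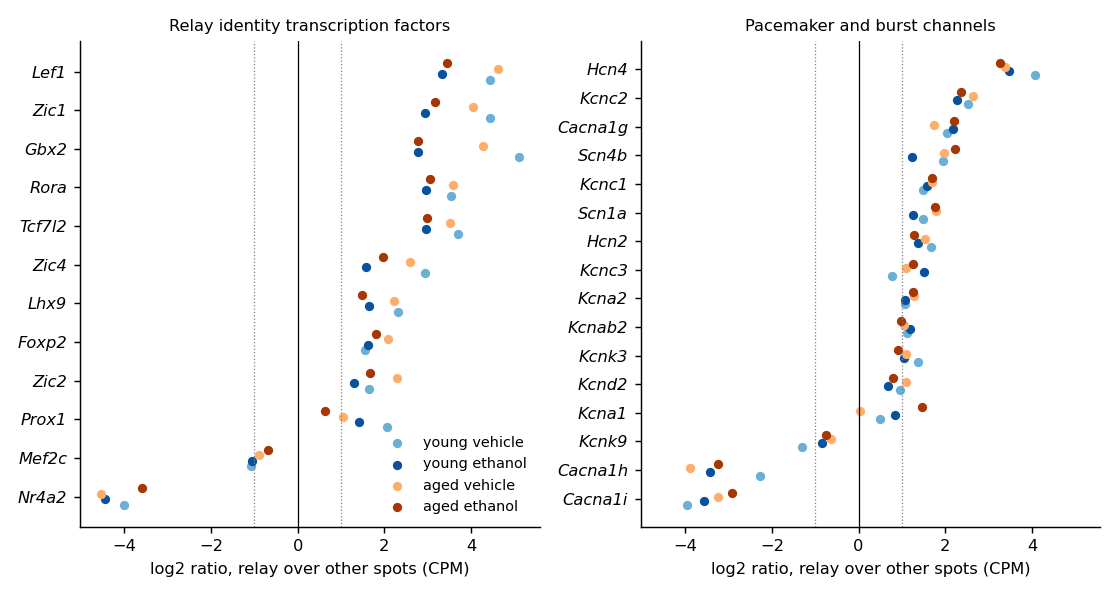
Log2 ratio of CPM in relay spots over all other spots of the same section, for the relay transcription factor list (left) and for 16 of the 17 genes of the channel list (right), 1 point for each library; dotted lines mark 2-fold. Lef1, Rora, Tcf7l2, Hcn4 and Cacna1g lie right of the upper limit in all 4 libraries, and Nr4a2, Cacna1h and Cacna1i lie left of the lower one.

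Receptors also formed a pattern of subunits. Among 12 GABA-A subunits the relay spots carried more Gabra4 (2.56) and Gabrd (2.30), the α4 and δ subunits of extrasynaptic receptors that respond to ambient GABA, and less Gabra5 (−3.18) and Gabra2 (−2.20). Gabrd stood at 260.2, 258.3, 250.7 and 240.3 CPM in relay spots and at 46.9, 59.1, 44.6 and 55.2 CPM elsewhere, and Gabra4 at 303.9, 334.3, 373.3 and 357.2 against 48.1, 63.7, 53.2 and 64.7. The α4 and δ subunits were thus the 2 members that were higher, and the list median was −0.39. Of 20 glutamate receptor genes 3 were higher and 5 lower, with the metabotropic receptor Grm4 (2.75) and the NMDA subunit Grin2c (1.66) on one side, and on the other the AMPA subunit Gria2 (−1.85), at 62.1 to 83.9 CPM in relay spots against 266.7 to 292.8. Adra1b, an α1 adrenergic receptor (2.88), and Chrna4, the α4 nicotinic subunit (2.48), were among 4 higher modulator receptors of 16 measured, while the cannabinoid receptor Cnr1 (−4.28) and the serotonin receptor Htr2a (−3.50) were among 5 lower ones. Plcb4, a phospholipase of receptor signalling, was higher as well (2.99).

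Among transmitter genes, the vesicular glutamate transporter of subcortical neurons stood out. Slc17a6 had 277.5, 366.4, 308.3 and 410.4 CPM in relay spots and 51.5, 71.3, 53.3 and 74.9 CPM elsewhere (2.44). Slc17a7, the vesicular transporter of cortical neurons, stood at 517.4, 469.3, 538.5 and 409.8 CPM against 711.8, 601.2, 729.4 and 623.2 and met neither limit. Slc32a1, which loads GABA into vesicles, was lower (−3.03), and Slc6a11, a GABA transporter of astrocytes, was higher (1.51). Of 15 presynaptic genes 2 were higher, the complexin gene Cplx1 (1.73) and the vesicle protein gene Vamp1 (1.78), and 4 were lower, with Stx1a (−3.43) and Cplx2 (−3.47). Among 14 postsynaptic genes the scaffolds Shank3 (1.99) and Homer2 (1.45) were higher and 5 were lower, with Nrgn, a calmodulin-binding protein of forebrain spines, at 64.6 to 117.4 CPM against 1710 to 2099 (−4.43). Of 13 immediate early genes 8 were lower and 0 higher (median −2.06), among them Egr3 (−4.30), Egr4 (−4.45), Arc (−2.88) and Junb (−2.84).

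Markers of neighbouring structures were low but not absent. In the list of reticular and local GABA neuron markers 8 of 10 measured genes were lower, and its summed level was 70.9 to 102.9 CPM in relay spots against 954.5 to 1125 CPM elsewhere. Six3 is 0 by the rule, and Gad1, the GABA-making enzyme, stood at 36.9, 17.5, 32.5 and 31.9 CPM against 216.1 to 278.5. Of 10 hypothalamic markers 7 were lower, with a sum of 81.2, 131.2, 95.2 and 75.8 CPM and Sim1 at 0 in all libraries. Of 8 habenular markers 4 could be measured and 2 were lower, Tac2 (−4.61, a bound in 1 library) and Nwd2 (−4.02), and Pou4f1 had 0 UMIs in all 800 spots. The cortical list had 7 of 10 genes lower and 1 higher, Rorb (1.69), a nuclear receptor of layer 4, and the hippocampal list 7 of 8 lower. In the choroid plexus list 6 of 8 were lower.

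Most glial and vascular lists held no called gene. Of 10 myelin genes, 10 oligodendrocyte lineage genes, 12 homeostatic astrocyte genes, 14 microglia genes and 10 endothelial and pericyte genes, 0 were higher and 0 lower, with list medians of 0.26, 0.10, 0.42, −0.12 and 0.36. The same held for 13 mitochondrially encoded genes (0.03) and 18 nuclear genes of oxidative phosphorylation (0.14). Of 9 reactive astrocyte genes measured, 3 were lower: Gfap (−1.84), S100a6 (−1.70) and the complement gene C4b (−1.48), whose reads may in part belong to its near-identical neighbour C4a. Of 7 measured genes of ethanol and aldehyde metabolism, the retinaldehyde dehydrogenase Aldh1a1 was higher (251.6, 219.8, 236.5 and 223.2 CPM against 50.02, 52.9, 54.2 and 54.4, log2 ratio 2.09) and Aldh1b1, a mitochondrial aldehyde dehydrogenase, lower (−2.15), so this pair moved in opposite directions.

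Since Rora was high, the promoters of the 6 highest genes were read for AGGTCA, a core motif that nuclear receptors of the ROR and related families recognise. The windows come from RefSeq (GRCm38.p6) and run from 250 bases before to 50 after an annotated start, 300 bases in all, and both strands were searched, so TGACCT counts as well. Of the 6, Adamts19 had no entry, Smpx had no match and the remaining 4 had 1 match each. The 3 with protein-coding genes are shown 5′ to 3′ on the gene's strand with up to 40 bases on each side of the match, which is in capitals.
Abhd12b (chr12:70153999-70154084, plus strand, match 92 bases before the start): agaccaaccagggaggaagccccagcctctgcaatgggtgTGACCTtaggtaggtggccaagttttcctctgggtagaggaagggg
Zfp385c (chr11:100650736-100650821, minus strand, 88 bases before): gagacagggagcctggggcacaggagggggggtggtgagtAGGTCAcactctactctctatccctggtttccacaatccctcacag
Atp2a1 (chr7:126463131-126463216, minus strand, 103 bases before): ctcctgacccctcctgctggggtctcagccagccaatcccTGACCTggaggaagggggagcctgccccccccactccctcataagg
The match is common: it was found in 16.0% of 27025 promoters, in 11.9% of 11617 promoters of genes measured here, in 10.5% of 342 promoters of the higher genes and in 11.9% of 704 of the lower genes. These are shares of letters in a window and do not show binding.

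Relay spots were also compared with spots of other grey matter, chosen by marker genes of their own. In these comparisons channel genes were more often higher than lower in relay spots, while several other lists held genes of both directions. The 800 spots highest in Baiap3, Gabrq, Dlk1 and Arhgap36, genes of medial hypothalamus and amygdala, stood for another region that uses Slc17a6. Of 11227 genes, 515 were higher in relay spots (4.59%) and 746 lower (6.64%). Ordered by the smallest ratio over the libraries, Gabrd was among the 6 highest (median 4.69, 4.63 to 5.16), together with the secreted peptide gene Tafa4 (6.11), the homeobox gene Shox2 (5.49), Ptpn3 (5.16), Atp2a1 (5.71) and Eps8l2 (5.74). Of 16 channel genes 10 were higher and 4 lower (median 1.73 against −0.07 over all genes), with the sodium channel subunit Scn4b (3.63) and Kcnc2 (2.91) high. Slc17a7 was higher (3.52), and Slc17a6, a gene both regions use, met neither limit. Cartpt (−6.72), Tac1 (−5.56), Nnat (−3.98) and Peg10 (−4.55) were among the lower genes. Of 12 immediate early genes, 2 were higher, Dusp1 (1.78) and Ier2 (1.60), and 4 lower, with Egr4 (−2.51) and Fosb (−2.02) among them (median −0.65).

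Against the 800 spots highest in Hs3st4, Rprm, Syt6 and Tle4, genes of cortical layer 6, which projects back to relay thalamus, 457 of 11478 genes were higher (3.98%) and 835 lower (7.27%). Shox2 (6.22, 5.68 to 7.01), D130058E05Rik (5.67) and Gbx2 (5.54) were high, while Abhd12b (5.93), Smpx (6.11) and Atp2a1 (6.05) had no UMI in layer 6 spots of 1 library, where their ratios are bounds. Several groups differed in both directions: 9 channel genes higher and 3 lower of 16, 5 modulator receptors higher and 7 lower of 16, 4 glutamate receptors higher and 4 lower of 20, and 2 GABA-A subunits higher and 4 lower of 11. Of 12 homeostatic astrocyte genes 4 were higher, with the angiotensinogen gene Agt (2.05), Gjb6 (1.54) and Ntsr2 (1.09) among them. Of 12 immediate early genes 8 were lower and 0 higher (−2.68), a count that differed from the one against hypothalamus spots, where 2 were higher. Aldh1a1 was higher (2.97).

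At the border of the set some nucleus genes were higher outside it than inside. In the 800 spots ranked 801 to 1600, with scores down to 3.38, much of the relay pattern was still present: of 9879 genes, 58 were higher in relay spots (0.587%) and 146 were lower (1.48%). The higher genes included Tspan11 (3.45, a bound in 1 library), Pcp4 (2.02), a calmodulin regulator, Eps8l2 (2.11), Plxdc1 (1.77), Smpx (2.36), Hsbp1l1 (1.88), Hcn4 (1.33), Gabrd (1.27) and Scn4b (2.03). Of 9 thalamic nucleus genes measured, 5 were lower in relay spots and 0 higher (median −2.25), with the synapse organizers Cbln1 (−2.48) and Cbln4 (−2.89), Penk (−2.31) and Calb2 (−2.25). Of 10 relay transcription factors 0 were called in either direction (0.45). The count of 58 grew to 93 without the young ethanol library. With the 400 highest spots as the set, 2 genes were higher and 21 lower, but the spots compared were then ranks 401 to 1200. These include relay spots, so that setting describes another border.

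The order by score showed where these changes lie. Over all libraries, Calb2 stood at 4.90 CPM in ranks 1 to 200, 26.3 in ranks 201 to 400, 60.2 in ranks 401 to 600, 79.5 in ranks 601 to 800 and 222.6 in ranks 801 to 1200. Necab1 went from 11.2 through 52.4, 89.8 and 135.4 to 236.9 CPM, and Calb1 from 61.9 through 102.9, 137.5 and 179.2 to 245.1. All 3 genes were therefore lowest where the score was highest and were highest just below the limit. Tcf7l2 (380.7, 428.5, 438.3, 458.6 and 491.4 CPM) and Slc17a6 (333.4, 380.1, 347.2, 381.3 and 362.9) kept similar levels across the same ranks and were lower only later, at 229.5 and 185.2 CPM in ranks 1201 to 1600. Gad1 stood at 22.7 to 28.8 CPM within the set, at 36.8 in ranks 801 to 1200 and at 119.5 in ranks 1201 to 1600. Tcf7l2 and Slc17a6 thus kept their levels through ranks 801 to 1200, where the nucleus genes were highest, and then declined by degrees. In ranks 1601 to 2000 Tcf7l2 still stood at 132.4 CPM. Rora was already lower in ranks 801 to 1200 (362.3 CPM) and stood at 124.1 CPM in ranks 1201 to 1600. The bands share libraries in unequal numbers, so they describe the pooled spots.

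**Figure D3:**
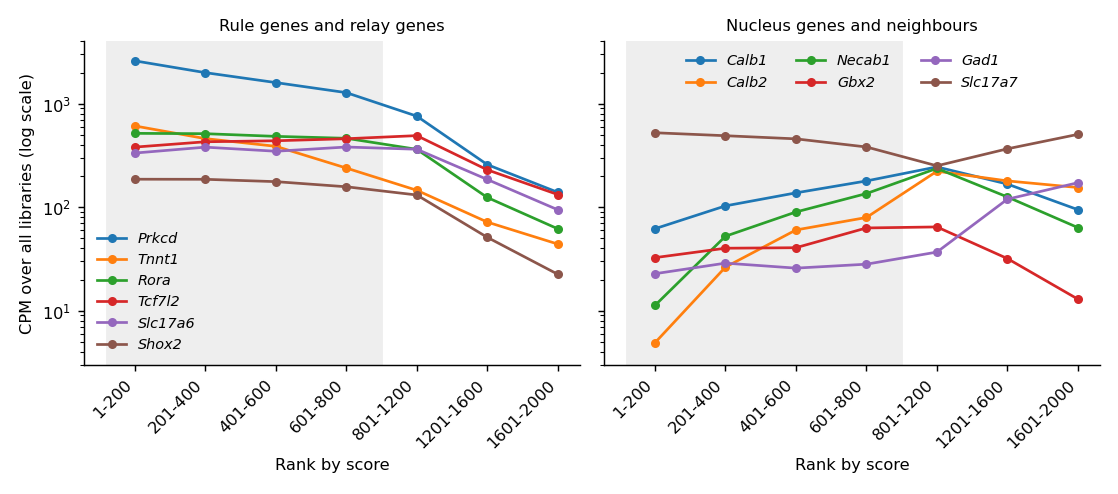
CPM of single genes, on a log scale, in bands of spots ordered by score over all 4 libraries; the grey area marks ranks 1 to 800, the relay spots. Prkcd and Tnnt1 decline with rank as the score requires, Tcf7l2 and Slc17a6 stay level to rank 1200, and Calb1, Calb2 and Necab1 climb to their highest values in ranks 801 to 1200.

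Few spots with a relay score carried Six3. There were 33 such spots, 0 and 15 in the young and 1 and 17 in the aged libraries, so they were compared in the ethanol libraries alone. Of 10433 genes 108 were higher in relay spots (1.04%) and 23 lower (0.220%). Slc32a1 was lower (−1.68, −1.78 to −1.57), while Foxp2 (2.30), Gbx2 (1.58), Lhx9 (1.56), Necab1 (2.16) and Calb2 (2.02) were higher. With young ethanol or aged ethanol alone the counts were 785 higher and 401 lower, or 843 and 365, against 108 and 23 that held in both, and the few spots limit this comparison.

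Relay spots varied among themselves along the nucleus genes. Within each library, the relay spots richest in Calb1, Calb2 and Necab1 were set against those poorest in them (33 against 33 spots in each vehicle library, 68 against 68 in young ethanol and 65 against 65 in aged ethanol). Poor spots without a UMI of these genes numbered 33, 65, 33 and 65, and ties were settled by matrix order. The median score of the rule was 23.6, 22.7, 24.7 and 22.5 in rich spots and 27.8, 30.9, 26.4 and 29.6 in poor spots. The split therefore also follows the score that chose the set. Of 5455 genes, 15 were higher in the rich spots (0.275%) and 2 lower (0.0367%). Sphkap, an anchor of protein kinase A, led with log2 ratios of 2.32, 3.71, 2.76 and 2.77. Gbx2 followed the nucleus genes, at 75.1 CPM in rich and 28.0 in poor spots of young vehicle and 95.1 and 14.3 in young ethanol. In the aged libraries it stood at 95.4 and 21.1 after vehicle and at 88.7 and 23.1 after ethanol. Ly6h (2.11), an inhibitor of nicotinic receptors, Cacng4 (2.01), an auxiliary subunit of AMPA receptors, Foxp2 (1.41) and the imprinted gene Nnat (1.32) were also higher in the rich spots of every library. Eps8l2 (−1.82) and Kcnab3 (−2.15), a potassium channel subunit, were the 2 lower genes. Without the young vehicle library 32 genes were higher and 9 lower, without aged vehicle 29 and 4, and without young ethanol 16 and 5.

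Pvalb, which encodes the calcium-binding protein parvalbumin (chromosome 15, 78191112 to 78206400), separated the libraries and also the relay spots within the ethanol libraries. Its relay UMIs numbered 158, 3373, 238 and 1967, or 97.2, 607.2, 135.6 and 550.2 CPM. The ratio was 6.25-fold for young ethanol over young vehicle (exact conditional 95% interval 5.32 to 7.38, counting error only) and 4.06-fold for the aged pair (3.54 to 4.66). In the other spots the same ratios were 1.41-fold and 1.36-fold, from 203.9 to 287.7 and from 152.2 to 206.4 CPM. The ratio was therefore larger in relay spots than in the rest of the section at both ages. The share of relay spots with a Pvalb UMI was 56.1%, 97.1%, 69.4% and 91.5%, and with each spot thinned to 5000 UMIs it was 33.8%, 74.1%, 42.2% and 77.9%. In layer 6 spots, which hold parvalbumin interneurons, the thinned shares were 41.8%, 40.7%, 29.3% and 41.6%. No alternative setting took Pvalb below 2-fold at either age. Without the relay spots highest in Pvalb (33, 68, 33 and 65 spots), the remaining relay spots stood at 42.2, 320.1, 78.7 and 310.1 CPM. That setting takes a like share of spots from each library, so it could not be expected to remove a difference between libraries. In spots that pool several cells, more cells of a type and more RNA in each cell cannot be told apart.

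The relay spots highest in Pvalb, a split chosen after the values were seen, carried other genes with them in the ethanol libraries. Syt2, the fast calcium sensor of vesicle release in parvalbumin-type neurons, stood at 97.8 CPM in these spots and 12.7 in the rest of young ethanol, and at 57.8 and 9.19 in aged ethanol. In the vehicle libraries it was at 2.54 and 0.812 and at 0 and 4.02 CPM. Stac2, which binds voltage-gated calcium channels, had 49.9 and 6.98 CPM in young ethanol and 41.0 and 7.99 in aged ethanol, but 2.54 and 4.06 and then 1.96 and 0 CPM in the vehicle libraries. Vamp1, a vesicle protein of fast synapses, stood at 735.2 and 339.8 CPM in young ethanol and at 489.4 and 353.3 in young vehicle. Tnnt1, a gene of the rule and so given as a description only, was at 557.8 and 609.2, 667.9 and 247.3, 574.2 and 534.4, and 611.7 and 340.1 CPM. Gabra3, the α3 GABA-A subunit, ran the other way, at 2.59 CPM in the Pvalb-rich spots and 32.2 in the rest of young ethanol and at 1.86 and 21.6 in aged ethanol, against 4.87 to 5.07 and 3.92 to 4.82 in the vehicle libraries. In the ethanol libraries Syt2 and Stac2 were thus higher in the Pvalb-rich spots and Gabra3 in the rest, and none of these 3 genes reached those levels in either set of the vehicle libraries. Gad1 was at 26.6 and 13.96 CPM in the Pvalb-rich spots and the rest of young ethanol and at 43.8 and 26.8 in aged ethanol. In young vehicle it was at 35.5 and 37.4 CPM and in aged vehicle at 45.1 and 27.3. Its split was thus not particular to the ethanol libraries. Over all relay spots Gad1 was lower in young ethanol than in young vehicle (0.47-fold), and its part in the result was not tested.

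**Figure D4:**
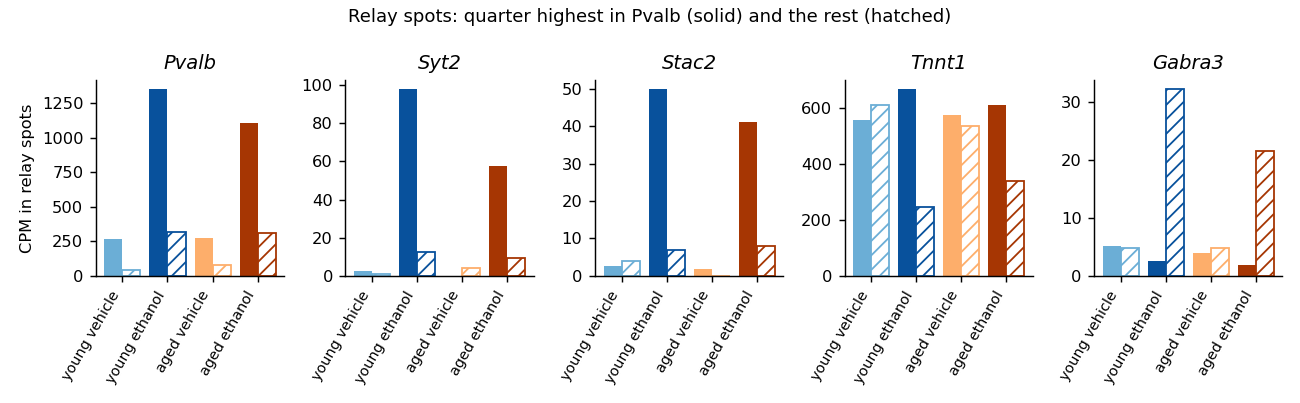
CPM of 5 genes in the relay spots highest in Pvalb (33, 68, 33 and 65 spots, solid bars) and in the remaining relay spots (hatched) of each library; the spots were split by Pvalb itself. Syt2 and Stac2 are high in the solid bars of the libraries labelled ethanol and Gabra3 in their hatched bars, and all 3 are low in the vehicle libraries; Tnnt1 is a gene of the rule and is shown as a description.

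Over all relay spots, Pvalb, Syt2, Stac2, Gabra3, the complement gene C4b, Serpina3n and the hypothalamic peptide gene Pmch were among the genes higher in the ethanol libraries at both ages. A gene was called where the 2 libraries differed by at least 2-fold and the one with more had at least 50 UMIs. For young ethanol over young vehicle 106 of 9233 genes were higher (1.15%) and 12 lower (0.130%). For aged ethanol over aged vehicle 73 of 7831 were higher (0.932%) and 22 lower (0.281%). Summed relay UMIs were larger in ethanol than in vehicle (5554636 against 1625479 young, 3574844 against 1754743 aged). The ethanol libraries thus reached 50 UMIs at a lower CPM, which favours calls of higher genes. The numbers of higher and lower genes can therefore not be compared with each other. In the young pair the counting interval left out a ratio of 1 for 110 of the 118 called genes, and in the aged pair for all 95. The genes were picked by the same ratios, so these shares follow largely from the selection and do not bear out the calls. Of the called genes, 14 were higher in both pairs, which is 13.2% of the young and 19.2% of the aged list, and 2 were lower in both. Syt2 had 2, 202, 5 and 85 relay UMIs, 29.6-fold higher in CPM in the young pair (8.08 to 246) and 8.35-fold in the aged pair (3.44 to 26.4). Stac2 had 6, 105, 1 and 64 UMIs (5.12-fold and 31.4-fold, the latter with an interval of 5.44 to 1260), and Gabra3 had 8, 133, 8 and 56 (4.86-fold and 3.44-fold). All 3 were low in both vehicle libraries.

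Several glial genes were higher in the ethanol libraries, and a few were lower. Serpina3n, a protease inhibitor of reactive astrocytes, had 2, 108, 10 and 77 UMIs in relay spots (15.8-fold, 4.27 to 132, and 3.78-fold, 1.95 to 8.19), and C4b had 11, 173, 7 and 114 (4.602-fold, 2.51 to 9.39, and 7.99-fold, 3.76 to 20.3). Outside the relay spots C4b was higher as well, by 5.09-fold and 3.20-fold, and Serpina3n by 2.67-fold and 1.75-fold. Of 6 reactive astrocyte genes measured, 3 were higher in the young pair, where Gfap was the third, and 3 in the aged pair, where Fbln5 was the third (2.03-fold), with 0 lower in either (medians 0.85 and 0.93 against 0.04 and −0.02 over all genes). Of 13 microglia genes 4 were higher in the young pair, Aif1, Ctss, C1qc and Tyrobp (median 0.89), and 0 in the aged pair (0.38). The cathepsin Ctss stood at 52.9, 128.9, 72.9 and 99.6 CPM and the complement chain C1qc at 49.8, 121.2, 50.2 and 78.3. Both genes were highest in the ethanol libraries, by less than 2-fold in the aged pair. Of the disease-associated microglia genes, 2 of 8 measured were higher in the young pair, Cd68 and Lyz2 (3.41-fold, 2.16 to 5.69), and in the aged pair 0 of 7 were higher and Cd9 was lower (0.43-fold, 0.34 to 0.56). Lyz2 stood at 12.3, 41.9, 23.9 and 22.4 CPM, and Cd9 at 65.2, 50.8, 76.4 and 33.0. Whether the gavage label or the plane of section goes with these glial values cannot be told apart.

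The hypothalamic gene Pmch, which encodes melanin-concentrating hormone, was among the genes higher in both pairs, at 0, 331, 8 and 50 UMIs. With the 0 of young vehicle set to the floor of 3 UMIs, Pmch was 32.3-fold higher in young ethanol. The exact interval, for counting error only, ran from 26.1-fold upward. In the aged pair Pmch was 3.07-fold higher. Hcrt had 0, 94, 1 and 34. Relay spots with a UMI of either gene numbered 0 of 132 and 148 of 274 (54.0%) in the young and 9 of 134 and 48 of 260 (18.5%) in the aged libraries. In the other spots Pmch stood at 4.59, 511.9, 152.3 and 249.9 CPM. Without the relay spots that held either gene, an alternative added after the data were seen, 37 genes were higher in the young pair in place of 106. Of the 106, 24 were among these 37, and in the aged pair 49 of the 73 stayed called. Under the same alternative Pvalb, Syt2, C4b and Serpina3n stayed past 2-fold in the young pair. Stac2 (log2 ratio 2.30), Ighm (3.89) and Cd68 (1.75) kept ratios past 2-fold but no longer had 50 UMIs, and Gfap (0.95) was under 2-fold. Without the relay spots highest in Pvalb, Stac2 was not called in the young pair (0.78).

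**Figure D5:**
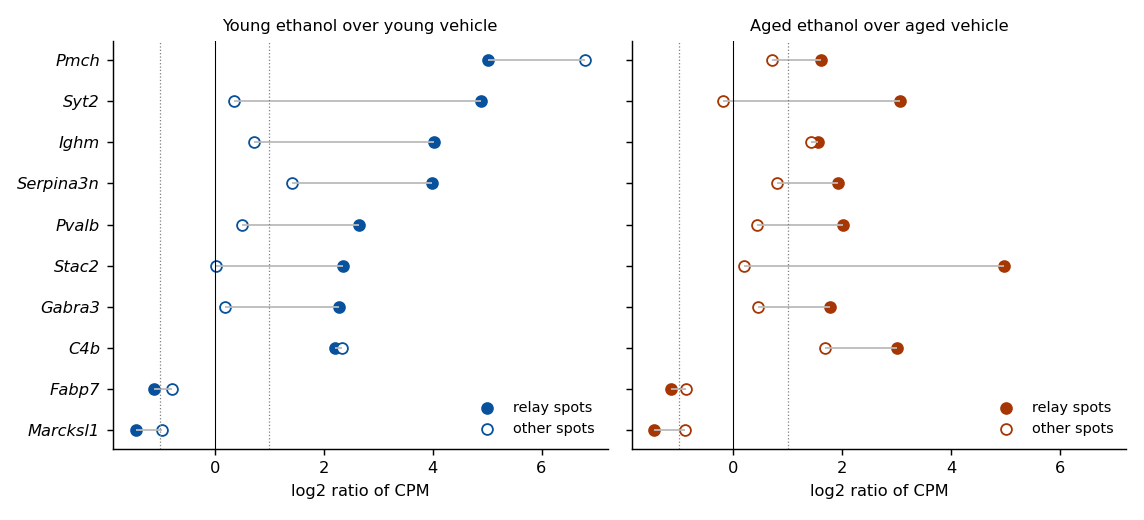
Log2 ratio of CPM between the ethanol and the vehicle library in relay spots (filled) and in all other spots (open) for the named genes past 2-fold in relay spots at both ages, with the young pair on the left and the aged pair on the right; dotted lines mark 2-fold. Syt2, Stac2, Pvalb and Gabra3 lie between −0.20 and 0.50 in the other spots and past 2-fold in relay spots, while C4b is past 2-fold in both.

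No relay transcription factor was called between the gavage labels, and a few channel and nucleus genes were. Over all genes, 1.15% were higher and 0.130% lower in the young pair, and 0.932% and 0.281% in the aged pair. At these shares a list this short would be likely to hold no called gene, so the count of 0 does not set the factors apart. Of 10 relay transcription factors measured in the young pair and 9 in the aged pair, 0 were higher or lower (medians −0.11 and 0.05). Of 13 channel genes 0 were called in the young pair, and of 14 in the aged pair 2 were higher, namely Kcna1 (5.20-fold, 2.10 to 16.7) and the sodium channel subunit Scn4b (2.42-fold, 1.89 to 3.13). Scn4b stood at 56.0, 68.1, 43.9 and 106.0 CPM, so aged ethanol alone was high. Of 6 thalamic nucleus genes 3 were higher in the young pair, Pvalb, Necab1 (2.64-fold, 2.02 to 3.497) and Cbln2 (2.49-fold), and of 5 in the aged pair 1, Pvalb. Cbln2 went from a log2 ratio of 1.32 to −0.89 without the spots holding Pmch or Hcrt. Of 8 GABA-A subunits Gabra3 was the 1 called member at each age, and it was not called in the young pair when the 100 highest relay spots of each library, or the 400 highest over all, were used. Lower in both pairs were Marcksl1 (32.0, 11.7, 37.6 and 13.7 CPM), a cytoskeletal gene of growing processes, and Fabp7 (64.6, 29.9, 55.3 and 24.9), a fatty acid carrier of astrocytes. The vehicle libraries lay above the ethanol libraries for both genes. In the other spots they did so too, with log2 ratios in the young and aged pair of −0.97 and −0.88 for Marcksl1 and −0.79 and −0.87 for Fabp7.

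The aged ethanol library, the highest in carry-over and mitochondrial transcripts, carried further differences, and the part of RNA quality in them was not tested. Gm42418, Lars2 and AY036118 were 7.18-fold, 6.18-fold and 5.50-fold higher than in aged vehicle, and mt-Atp8, a mitochondrial subunit of ATP synthase, was 2.45-fold higher. Ifi27l2a, an interferon-induced gene, had 3, 39, 5 and 85 relay UMIs (8.35-fold, 3.44 to 26.4), with 0.79-fold in the other spots. B2m, the light chain of MHC class I, was 2.16-fold (1.83 to 2.57) and H2-D1 2.13-fold (1.55 to 2.98) higher, while the precursor gene Pdgfra (0.46-fold), the myelin gene Mog (0.48-fold) and Klf2 (0.32-fold), a factor of endothelial cells, were lower. Lars2, Gm42418 and AY036118 made up 0.113% of relay UMIs in aged vehicle and 0.797% in aged ethanol, so leaving them out of the total could change the ratios little. With them left out, 73 of the 73 higher and 20 of the 22 lower genes stayed called, which does not bear on RNA quality.

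The difference between relay and other spots was also taken for each pair, as the log2 ratio in relay spots minus that in the rest of the sections. In the young pair 93 of 9228 genes were higher by at least 1 (1.01%) and 33 lower (0.358%), and in the aged pair 45 of 7830 (0.575%) and 14 (0.179%). In both pairs 9 genes were on the higher side: Pvalb (2.15 and 1.58), Syt2 (4.54 and 3.26), Stac2 (2.33 and 4.77), Gabra3 (2.09 and 1.34), Serpina3n (2.57 and 1.11), the neurexin ligand Nxph1 (1.31 and 1.23), Npy (1.15 and 1.41), Hopx (1.22 and 1.19) and Cox7a1 (1.08 and 1.19). C4b differed by −0.15 in the young pair and 1.32 in the aged pair. Further, 7 genes were on the lower side in both, among them Gbx2 (−2.32 and −1.51), Shox2 (−1.42 and −1.36) and Lef1 (−1.10 and −1.17). For Gbx2, Shox2 and Lef1 the relay level differed little between the paired libraries, with log2 ratios of 0.19, 0.30 and 0.09 in the young pair, whereas Vipr2, another of the 7, had −0.92 in relay spots and 1.01 in the other spots of the young pair. Shox2 stood at 148.3, 182.7, 169.8 and 186.9 CPM in relay spots and at 3.595, 11.9, 4.95 and 14.03 CPM elsewhere. Gbx2, Shox2 and Lef1 were thus also more abundant outside the set in the ethanol sections, which held more relay spots.

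Between the ages, few genes were called in relay spots within a gavage label. None was called in the same direction under both labels, which is likely in any case with so few called genes. For aged over young vehicle 4 of 5627 genes were higher (0.0711%) and 8 lower (0.142%), and for aged over young ethanol 15 of 9248 were higher (0.162%) and 33 lower (0.357%). Opn3, an opsin, was higher in aged vehicle (25.2 to 52.4 CPM, 2.08-fold, 1.42 to 3.08) and stood at 43.6 and 81.7 CPM in young and aged ethanol, a ratio under 2-fold; it was lost under 3 of 11 alternatives, 1 of them the limit of 100 UMIs. Cacng7 and Gpr17, a receptor of differentiating oligodendrocytes, were lower in aged vehicle (0.32-fold and 0.31-fold), as was Shank3 (0.49-fold). Between the ethanol libraries Fos (2.52-fold, 1.80 to 3.56) and Ifi27l2a (3.39-fold, 2.29 to 5.08) were higher in the aged one, and Pmch (0.24-fold), Cbln2 (0.24-fold) and Arrdc2 (0.36-fold) lower. Without the spots holding Pmch or Hcrt, 4 of the 33 lower genes stayed called, and 20 genes in all were lower. No relay transcription factor, GABA-A subunit or microglia gene was called in either comparison. At the shares over all genes given above, lists this short would be likely to hold none, so this does not set these families apart.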

How the data were processed

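Visium libraries of 4 brain sections, 1 for each pairing of age and gavage, were analysed. The deposited matrix holds raw UMI counts per gene and spot, 32285 genes by 11064 spots, written by the authors with Space Ranger 1.3.1 per the file headers, whereas the submitters' processing notes name version 2.0.0 and the mm10 genome. Any equalising of depth between libraries on joining them was not given in the sources used here. Barcode suffixes were matched to libraries by the deposited file of barcodes and the labels, and 38 symbols shared by several genes were told apart by identifier. Spot images and positions were not used, and no doublet caller was run, since a spot covers several cells.

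Counts were summed over the chosen spots of a library and scaled to CPM, and ratios were taken within a library (between sets of spots, 2-fold in all libraries) or between libraries (2-fold, at least 50 UMIs). Exact conditional intervals at 95% cover counting error only, and so do the Clopper-Pearson intervals of shares. UMIs are corrected for PCR copies. Shares of spots with a UMI were also taken after thinning to 5000 UMIs, which left out 10 relay spots. A level of 0 was replaced by a floor of 3 UMIs summed over the set of a library, and such ratios are bounds. Each gene list is described by its counts and median beside those of all genes. With 1 library for each group there was no test.

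The members, the 34 gene lists and the comparisons were chosen with earlier results of these data known. Between sets of spots, the named genes were the 6 highest and 6 lowest called, by the ratio of the library closest to 0, and up to 4 called members of each list. Between libraries they were the 5 highest and 5 lowest by the interval bound closest to 0, up to 3 called members of each list, and up to 8 genes called alike in both pairs. Genes of the rule, of thalamic nuclei, relay factors and channels could be given by level. Others named, such as those in the Pvalb split, were chosen after their values were seen. The comparison with Six3-positive spots was planned for all libraries but had spots enough only in the ethanol libraries. A few genes counted in the lists are not reported here by name. Scripts were tested on simulated data. Python 3.11.15, numpy 2.4.6, scipy 1.17.1, pandas 2.3.3 and matplotlib 3.10.9 were used. Alternatives changed the scaling, the UMI limits, the number and filter of relay spots, and left out libraries or subsets of relay spots.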

Additional observations from a re-analysis of the deposited data

Results flagged for a closer look

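In relay spots, 4 transcripts went in opposite directions in the same comparison at both ages or under both gavage labels. None of these differences was tested, since each group is 1 library. Bc1, a neuronal noncoding RNA, had a log2 ratio of ethanol over vehicle of −1.36 in the young pair and 1.08 in the aged pair. Lars2 had −1.38 and 2.63 in these pairs, and for aged over young it had −1.97 between the vehicle and 2.04 between the ethanol libraries. Ttr had −2.64 and 1.52 between the gavage labels and −2.01 and 2.16 between the ages. For Lars2 and Ttr, the ratios by gavage and by age come from the same 4 values and are not separate results. Gm42418 had −1.32 for aged over young vehicle and 1.94 for aged over young ethanol. The CPM of Ttr in relay spots were 279.3 and 44.6 in the young libraries and 69.5 and 199.4 in the aged ones, vehicle first, and those of Gm42418 were 2423 and 1805, and 968.2 and 6947. In the other spots Bc1 stood at 12326 and 7905, and 6720 and 17202 CPM. By age, Gm42418 had −0.46 and 0.91 there and Lars2 −0.46 and 0.96, so opposite signs were not confined to relay spots. By gavage, however, Lars2 had 0.01 in the young pair and 1.43 in the aged pair there, without opposite signs. Ttr had 1 sign there, with −1.82 and −1.69 by gavage and 0.29 and 0.42 by age.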

How the results depend on the processing

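No paired analysis was possible because each group is 1 library and the labels give no replicate numbers. Of the values of single genes, 693 kept direction and call between libraries, 149 lost the call and 1 reversed; between sets of spots 2562, 144 and 1 did. The reversals were Cbln2 (young pair, −0.89 without relay spots holding Pmch or Hcrt) and Nptx1 (against Six3-positive spots, −0.78 with the 200 highest spots of each library). Where the 400 highest spots or 200 of each library were the set, the spots compared with were chosen anew. Against the next 800 spots, a limit of 50 UMIs left 70 lower genes, and leaving out 1 library gave 59 to 93 higher. The 400 highest spots gave 2 higher and 21 lower against ranks 401 to 1200, which include relay spots. Against Six3-positive spots, 50 UMIs left 53 higher and 2 lower, the 400 highest 45 lower and 200 for each library 54 lower; leaving out 1 library gave 785 to 843 higher and 365 to 401 lower. Within relay spots, larger rich and poor groups left 1 lower gene, and leaving out 1 library gave 16 to 32 higher and 2 to 9 lower. With at least 100 UMIs, the young pair had 35 higher and 5 lower, the aged pair 24 and 8, the vehicle libraries 0 and 4 by age and the ethanol libraries 9 and 7, and relay minus other spots 32 and 21 (young) and 14 and 7 (aged). With at least 20 UMIs these were 324 and 70, 209 and 76, 84 and 69, and 63 and 147. With the highest 100 spots of each library the young pair had 61 and 30, the aged pair 35 and 37, and relay minus other spots 48 and 59, and 22 and 28. Without the tenth of relay spots highest in myelin genes the aged pair had 12 lower. Without spots holding Pmch or Hcrt, added after the data were seen, the young pair had 37 higher and the ethanol libraries by age 20 lower. The UMI limits change the genes counted; the causes of the other changes were not tested. Scores without Prkcd shared 677 of the 800 spots. Relay depth limits low genes most in the vehicle libraries.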
